A study of Danio rerio with 80 samples.

Results

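Collagen chain genes were taken as the gene IDs of the count table whose symbol reads col, a number, the letter a and a number, kept where 2 or more libraries of a time point held 5 reads or more each. They were 54 of the 18917 gene IDs that passed this filter. The name matched 57 of the 32520 IDs listed, and 3 of these (col28a1b, col28a2b and the col19a1 ID ENSDARG00000096073) had too few reads. Of the 54 members, 32 carried a zebrafish symbol and 22 carried only the symbol of their human counterpart, which is printed in capitals. The symbols COL2A1, COL10A1, COL12A1, col19a1 and col7a1l each stood on 2 IDs, so the Ensembl ID is given wherever 1 of them is described.

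Each collagen protein is built from chains that wind into a rope-like helix, and each chain has its own gene. Fibril-forming collagens (types I, II, III, V, XI and others) give skin, bone and cartilage their tensile strength, with type I in skin, bone and fin and type II in cartilage and the notochord sheath. Other collagens sit on these fibrils (the FACIT group, such as types IX and XII), build meshes (type IV in basement membranes, types VIII and X as networks), beaded filaments (type VI) or anchoring fibrils under the epidermis (type VII), carry a cleavable end fragment beside basement membranes (the multiplexins, types XV and XVIII), or span the cell membrane (types XVII and XXIII). The 54 members comprised 15 fibril-forming, 6 basement membrane, 5 network, 5 beaded filament, 3 anchoring fibril, 11 FACIT, 3 multiplexin, 4 transmembrane and 2 other (type XXVIII) genes.

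Zebrafish embryos of the 5D wild-type strain were exposed in 1% DMSO to benzo[a]pyrene carrying a methyl group at position 8 (8-MBaP) or position 6 (6-MBaP), or to the parent compound (BaP), each at 0.133, 1.33 or 13.3 µM, or to 1% DMSO alone (control). The 3 compounds are polycyclic aromatic hydrocarbons of the same ring system. Whole embryos were collected at 48 or 72 h post fertilization (hpf), in pools of 6, whatever they looked like, and 4 pools (A to D) were sequenced for each of the 20 groups. Each exposure was held on 1 plate and the controls on another, so plate and exposure cannot be told apart, and p-values measure the spread between pools of 1 plate.

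The 80 libraries held 5353245 to 7547724 counts at 48 hpf and 4838752 to 8779891 at 72 hpf. The chain genes took a median of 0.737% of the counts at 48 hpf and 0.852% at 72 hpf. Levels are CPM (the count of a gene scaled to a common library total) after scaling across all libraries, and since only transcript 3′ ends were sequenced, a level is not divided by gene length. As a check of the exposure labels, cyp1a, the classical target of the aryl hydrocarbon receptor, measured 1133 to 1377 CPM in the 4 pools with 13.3 µM 8-MBaP at 72 hpf, against 3.93 to 6.25 CPM in the control pools. No pair of libraries within a group agreed within sampling noise.

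In the control embryos a handful of chains supplied most of the collagen transcripts. At 72 hpf the COL2A1 ID ENSDARG00000069093 (the chain of type II collagen) had 1739, 1660.2, 1809.7 and 1757 CPM in pools A to D. The type I chain col1a1a (ENSDARG00000012405) had 1579, 1470.1, 1629.8 and 1667 CPM, a range that overlapped with that of COL2A1. The other type I chains followed, with COL1A2 at 1047 ± 37.8 CPM and COL1A1 at 956 ± 18.5 CPM (mean ± SD, n = 4). Together with COL11A1 at 634 ± 46.3 CPM, a minor chain of cartilage fibrils, these 5 genes made up 67.5% of the summed collagen level. At the other end, 18 members lay between 1 and 10 CPM and 8 lay under 1 CPM. At 48 hpf the order differed at the top, where col1a1a came first at 1453 ± 92.7 CPM, COL1A2 had 1075 ± 26.8 CPM and COL2A1 ENSDARG00000069093 had 1049 ± 117 CPM. The ranges of COL1A2 and COL2A1 overlapped, as did those of COL2A1 and COL1A1 (955 ± 20.6 CPM), and the same 5 genes made up 69.7% of the sum.

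8-MBaP at 13.3 µM was the exposure at which the summed collagen level lay apart from the control at both times. At 72 hpf the sum over the members was 7333, 7877, 7474 and 6690.2 CPM with 13.3 µM 8-MBaP, against 8786, 8429, 9069.5 and 9048 CPM in the control, and the 2 groups did not overlap. At 48 hpf it was 6365, 6490.1, 6624 and 6830.1 CPM with 13.3 µM 8-MBaP, against 7578, 7353, 6994 and 7269 CPM in the control, again without overlap. With 1.33 µM 8-MBaP at 72 hpf it was 7704, 8070.1, 7975 and 7483 CPM, also below every control pool, whereas 0.133 µM gave 8534 to 9050.0 CPM, within the control range. Of the exposures to 6-MBaP and BaP, only 1.33 µM 6-MBaP at 72 hpf lay apart from the control, with 7767 to 8428 CPM against 8429 to 9069.5 CPM. The sum is a description only, and in pools of whole embryos fewer cells of a type and less RNA per cell cannot be told apart.

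**Figure D1:**
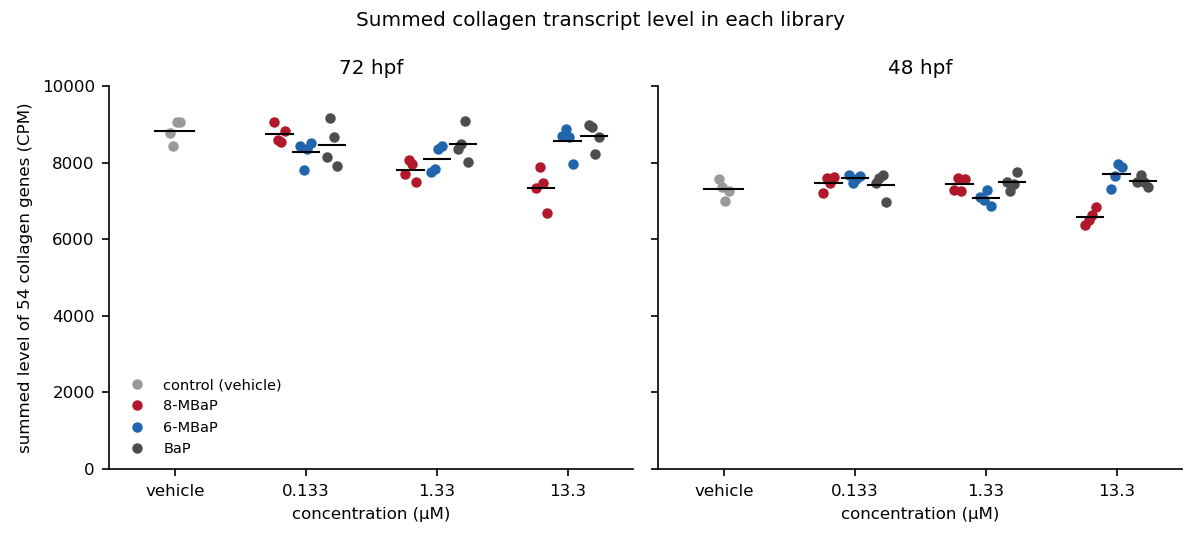
Summed level of the 54 collagen chain genes (CPM) in each pool, by compound and concentration, with 72 hpf left of 48 hpf; points are pools and bars are means of 4. The pools with 13.3 µM 8-MBaP sit between 6690.2 and 7877 CPM at 72 hpf and between 6365 and 6830.1 CPM at 48 hpf, below all control pools of the same time.

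The question of the first comparison was which chain genes differed between 13.3 µM 8-MBaP and the control, since this compound duplicates the caudal fin fold whereas BaP and 6-MBaP do not. At 72 hpf, 9 of the 54 members passed an adjusted p of 0.05 (edgeR's quasi-likelihood test, Benjamini-Hochberg over all genes tested), 8 lower and 1 higher, where 2.47% of all 18423 genes tested did (1.26% lower, 1.21% higher). The log2 fold change was below 0 in 40 of 54 members, with a median of −0.26, against 50.6% of all genes and a median of −0.00. A similar count, 39 of 54 with a median of −0.10, was seen with 1.33 µM 6-MBaP at 72 hpf, where no member passed. The 8 that fell were the type I chain col1a1a, the cartilage chains COL2A1, COL11A2 and col9a1b, the type X chain COL10A1, the type VI chain COL6A2, the multiplexin col18a1a and the type XXVIII chain col28a1a, and the 1 that rose was the transmembrane chain col23a1a. At 48 hpf, 6 of 52 members fell and none rose, where 1.54% of all 17794 genes tested passed (0.77% lower). They were col18a1a, COL10A1, col1a1a, the type IX chains COL9A1 and col9a3, and the transmembrane chain col17a1b. The log2 fold change was below 0 in 35 of 52, with a median of −0.17, against 49.7% of all genes and a median of 0.00. Pool D with 8-MBaP had the lowest summed level at 72 hpf, and without it the count at 72 hpf was 4 instead of 9. At 48 hpf the count was 3 instead of 6 without 8-MBaP pool C or without control pool A.

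Among the fibril-forming chains, type I collagen was called lower through 1 of its 3 genes. At 72 hpf col1a1a had 1256, 1267, 1179 and 1138 CPM with 13.3 µM 8-MBaP, against 1579, 1470.1, 1629.8 and 1667 CPM in the control. All 4 exposed pools were below all 4 control pools, with a log2 fold change of −0.38 ± 0.07 (SE; adjusted p = 0.000119), and the call stood without any single library. At 48 hpf col1a1a had 1146, 1189, 1204 and 1319 CPM with 8-MBaP, against 1505, 1546, 1336 and 1427 CPM in the control. There the log2 fold change was −0.26 ± 0.07 (adjusted p = 0.0175), and the call was lost without 8-MBaP pool A, control pool A or control pool B (adjusted p up to 0.0900). Neither COL1A1 nor COL1A2 passed the test at either time, which does not show that they were unchanged. As a share of the counts of the 3 type I genes, col1a1a made up 40.5% ± 0.960 with 8-MBaP and 44.2% ± 1.27 in the control at 72 hpf (SD, n = 4 each), and 38.6% ± 0.464 with 8-MBaP and 41.7% ± 1.16 in the control at 48 hpf, without overlap at either time.

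Among the fibril chains of cartilage, 1 of the COL2A1 IDs and COL11A2 fell at 72 hpf. COL2A1 ENSDARG00000069093 had 1335, 1486, 1509 and 1203 CPM with 13.3 µM 8-MBaP, against 1739, 1660.2, 1809.7 and 1757 CPM in the control, with no overlap (log2 fold change −0.32 ± 0.09, adjusted p = 0.0364). COL11A2 (ENSDARG00000012422), a type XI chain that joins type II fibrils, had 176, 192, 191 and 135 CPM with 8-MBaP, against 207, 209, 261 and 259.8 CPM in the control, again apart (−0.42 ± 0.11, adjusted p = 0.0125). Both calls depended on single libraries. That of COL2A1 was lost without 8-MBaP pool A or D or control pool A, C or D (adjusted p up to 0.211), and that of COL11A2 without 8-MBaP pool D or control pool C or D (up to 0.148). At 48 hpf the same COL2A1 ID had 890.0, 860.3, 876 and 871 CPM with 8-MBaP, all below the control pools at 1217, 967, 1038 and 974 CPM, but its adjusted p of 0.0508 missed the threshold (log2 fold change −0.27 ± 0.08). In all, 3 of 15 fibril-forming genes were called lower at 72 hpf and 1 of 14 at 48 hpf, where 1.26% and 0.77% of all genes were. The median log2 fold changes of the fibril-forming genes were −0.18 and −0.12.

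Type IX collagen, a FACIT that decorates cartilage fibrils, was called through different chains at the 2 times. At 72 hpf col9a1b (ENSDARG00000031483) had 108, 97.3, 101 and 81.5 CPM with 13.3 µM 8-MBaP, against 119, 119.9, 147 and 151 CPM in the control, without overlap (log2 fold change −0.45 ± 0.13, adjusted p = 0.0304). At 48 hpf col9a3 (ENSDARG00000037845) had 131, 109, 125 and 121 CPM with 8-MBaP, against 156, 155, 139 and 143 CPM in the control (−0.29 ± 0.08, adjusted p = 0.044). COL9A1 (ENSDARG00000073699) had 32.7, 33.7, 26.7 and 30.7 CPM with 8-MBaP at 48 hpf, against 48.8, 35.2, 36.0 and 50.4 CPM in the control (−0.46 ± 0.12, adjusted p = 0.0302). In each of the 3 the exposed pools lay below all control pools. The call of col9a1b was lost without 8-MBaP pool B or D or control pool C or D (adjusted p up to 0.172), that of COL9A1 without 8-MBaP pool C or D or control pool A or D (up to 0.163), and that of col9a3 without any of 6 libraries, all but 8-MBaP pool A and control pool C (up to 0.158). All 11 FACIT genes had a log2 fold change below 0 at 72 hpf, where 50.6% of all genes did. The median of the FACIT genes was −0.32, although only col9a1b passed the test. The direction says little for col14a1b and col21a1, which had 3, 2, 0 and 0 reads and 0, 0, 1 and 1 reads with 13.3 µM 8-MBaP.

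Type X collagen, the network chain of enlarging cartilage cells and of early bone-forming cells in fish, fell at both times. The COL10A1 ID ENSDARG00000054753 had 41.6, 42.8, 23.2 and 32.8 CPM with 13.3 µM 8-MBaP at 48 hpf, against 63.4, 53.3, 67.1 and 78.3 CPM in the control. The pools did not overlap, the log2 fold change was −0.91 ± 0.15 (adjusted p = 5.59e-05), and the call stood without any single library. At 72 hpf it had 134, 139.5, 132 and 105 CPM with 8-MBaP, against 168, 158, 183 and 159 CPM in the control (−0.38 ± 0.09, adjusted p = 0.0123), a call that was lost without 8-MBaP pool D or control pool C (adjusted p up to 0.132). The other COL10A1 ID, ENSDARG00000101535, averaged 0.394 CPM in the control at 72 hpf and had no reads in the control at 48 hpf.

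Type VI collagen, which forms beaded filaments around muscle and connective tissue cells, was called at 72 hpf through COL6A2 (ENSDARG00000061436). It had 60.3, 75.2, 78.0 and 66.4 CPM with 13.3 µM 8-MBaP, against 91.9, 101, 94.8 and 83.1 CPM in the control, without overlap (log2 fold change −0.39 ± 0.10, adjusted p = 0.0104). The call was lost without 8-MBaP pool A or D or control pool B (adjusted p up to 0.0860), and at 48 hpf the log2 fold change was −0.06 (adjusted p = 0.910). None of the 6 type IV genes, the chains of basement membranes, passed the test at either time, and their summed level was 293 ± 12.1 CPM with 8-MBaP and 300.4 ± 16.6 CPM in the control at 72 hpf (SD, n = 4 each). The 3 type VII genes did not pass it either.

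The most stable lower call was that of col18a1a (ENSDARG00000036558), a type XVIII chain, whose mammalian counterpart carries the endostatin fragment. At 72 hpf it had 88.2, 78.7, 82.3 and 81.4 CPM with 13.3 µM 8-MBaP, against 120.2, 124, 105 and 118 CPM in the control (log2 fold change −0.49 ± 0.09, adjusted p = 0.000129). At 48 hpf it had 90.9, 126, 101 and 114 CPM with 8-MBaP, against 161, 174, 152 and 154 CPM in the control (−0.57 ± 0.09, adjusted p = 7.76e-06). The groups were apart at both times, and both calls stood without any single library and under each alternative of normalization, filter and test. Of the 3 multiplexins it was the one called.

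Transmembrane and type XXVIII chains moved at low levels. The type XXIII chain col23a1a (ENSDARG00000095339) had 13.97, 12.1, 12.1 and 13.9 CPM with 13.3 µM 8-MBaP at 72 hpf, against 5.07, 5.83, 5.18 and 9.19 CPM in the control, all exposed pools above all control pools (log2 fold change 1.04 ± 0.24, adjusted p = 0.00418). The type XXVIII chain col28a1a (ENSDARG00000077084) had 4, 1, 5 and 4 reads with 8-MBaP, against 13, 22, 26 and 22 reads in the control, that is 0.650, 0.159, 0.577 and 0.604 CPM with 8-MBaP and 2.197, 2.98, 4.08 and 2.81 CPM in the control. It fell by 2.53 ± 0.46 on the log2 scale (adjusted p = 0.000134). Both calls stood without any single library, although that of col28a1a rests on few reads. The other type XXVIII chain, col28a2a, had a log2 fold change of 0.55 ± 0.17 that missed the threshold (adjusted p = 0.0836). At 48 hpf neither gene passed, whereas col17a1b (ENSDARG00000079011), a type XVII chain of the hemidesmosomes that tie epidermal cells to their base, had 2.97, 3.03, 2.48 and 5.19 CPM with 8-MBaP, against 5.00, 7.17, 7.86 and 7.94 CPM in the control. Pool D with 8-MBaP lay above control pool A. The log2 fold change of col17a1b was −1.03 ± 0.27 (adjusted p = 0.0298), and the call was lost without any of 6 libraries, all but 8-MBaP pool D and control pool A (adjusted p up to 0.152).

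**Figure D2:**
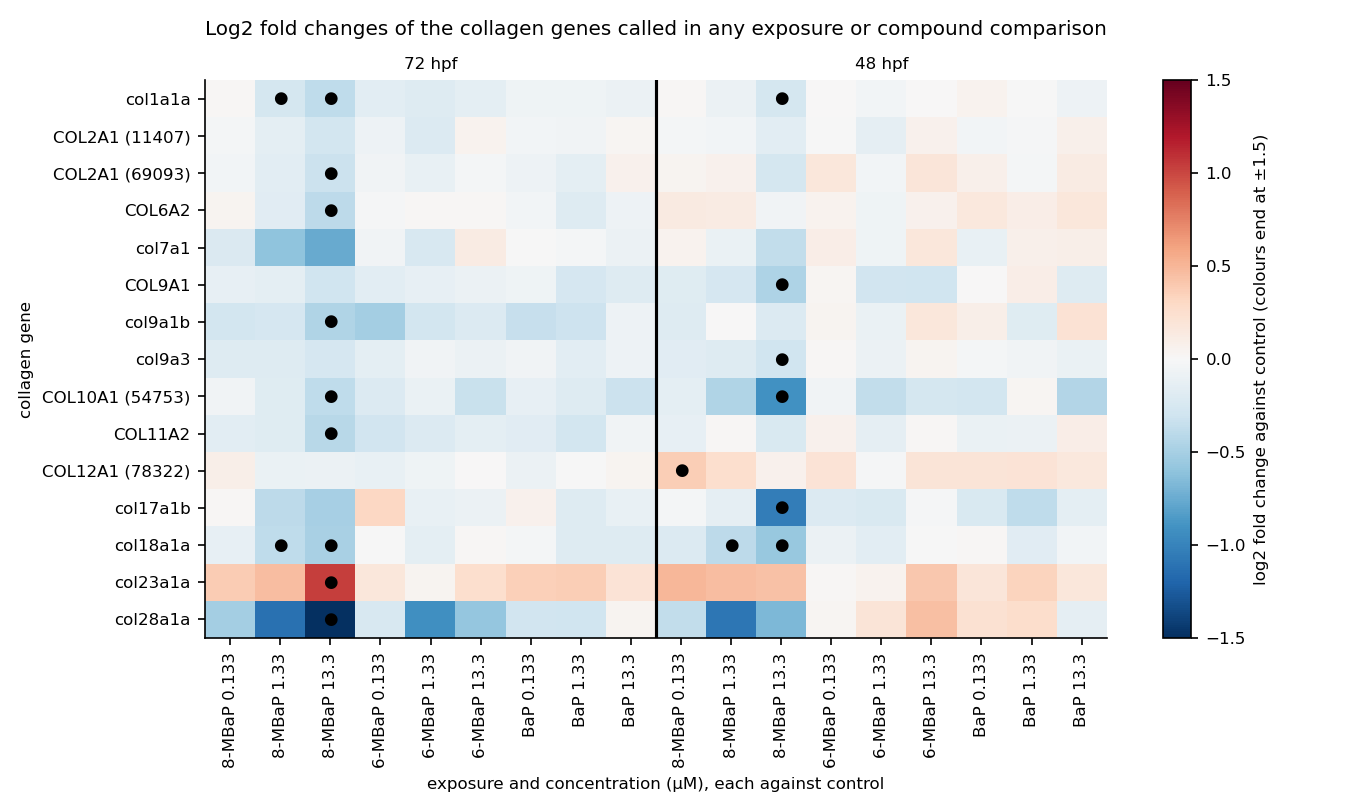
Log2 fold changes of 15 collagen chain genes (down the page) against the control of the same time, for 18 exposures (across), with 72 hpf left of 48 hpf; dots mark genes that passed an adjusted p of 0.05. The dots stand in the columns of 8-MBaP, with 9 of them at 13.3 µM and 72 hpf and 6 at 13.3 µM and 48 hpf.

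At the lower concentrations of 8-MBaP few chain genes passed. With 1.33 µM at 72 hpf 2 of 54 members fell, col1a1a and col18a1a (0.923% of all genes passed, 0.407% lower). There 43 of 54 log2 fold changes were below 0 with a median of −0.18, against 51.3% of all genes and a median of −0.01. With 1.33 µM at 48 hpf 1 of 52 fell, col18a1a (0.691% of all genes passed, 0.275% lower). With 0.133 µM no member passed at 72 hpf by edgeR (0.277% of all genes did), where 5 lay under an unadjusted p of 0.05 and DESeq2 called 0. At 48 hpf the type XII chain COL12A1 ENSDARG00000078322 passed with 121, 132, 121 and 126 CPM with 0.133 µM 8-MBaP, against 88.8, 109, 96.6 and 92.6 CPM in the control, without overlap (log2 fold change 0.37 ± 0.09, adjusted p = 0.0496, where 0.433% of all genes passed and 0.191% were higher). That call was lost without any of 7 of the 8 libraries (adjusted p up to 0.229), and the log2 fold change of this gene was 0.25 with 1.33 µM and 0.06 with 13.3 µM.

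For col18a1a the levels at 72 hpf were 120.2, 124, 105 and 118 CPM in the control, 106, 112, 111 and 102 CPM with 0.133 µM 8-MBaP, 92.5, 100.3, 90.4 and 76.3 CPM with 1.33 µM and 88.2, 78.7, 82.3 and 81.4 CPM with 13.3 µM. Against the control, the log2 fold changes at 72 hpf were −0.12 (adjusted p = 0.934), −0.38 ± 0.09 (adjusted p = 0.0108) and −0.49 ± 0.09 in order of concentration. At 48 hpf they were −0.20 (adjusted p = 0.426), −0.40 ± 0.09 (adjusted p = 0.00778) and −0.57 ± 0.09. The call with 1.33 µM was lost at 72 hpf without 8-MBaP pool D or control pool B (adjusted p up to 0.138) and at 48 hpf without control pool B (0.0630). For col1a1a at 72 hpf, 1.33 µM gave 1351, 1303, 1384 and 1252 CPM, below every control pool (log2 fold change −0.26 ± 0.07, adjusted p = 0.0358), and the call was lost without any of 6 libraries, all but 8-MBaP pool C and control pool B (adjusted p up to 0.173). Between neighbouring concentrations of 8-MBaP no member passed by edgeR. For 13.3 against 1.33 µM, 13 members at 48 hpf and 5 at 72 hpf lay under an unadjusted p of 0.05 (0.0225% and 0.147% of all genes passed), and DESeq2 called 1 and 0. For 1.33 against 0.133 µM these numbers were 3 and 10 (0.0899% and 0.168% of all genes passed), and DESeq2 called 0 and 3.

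**Figure D3:**
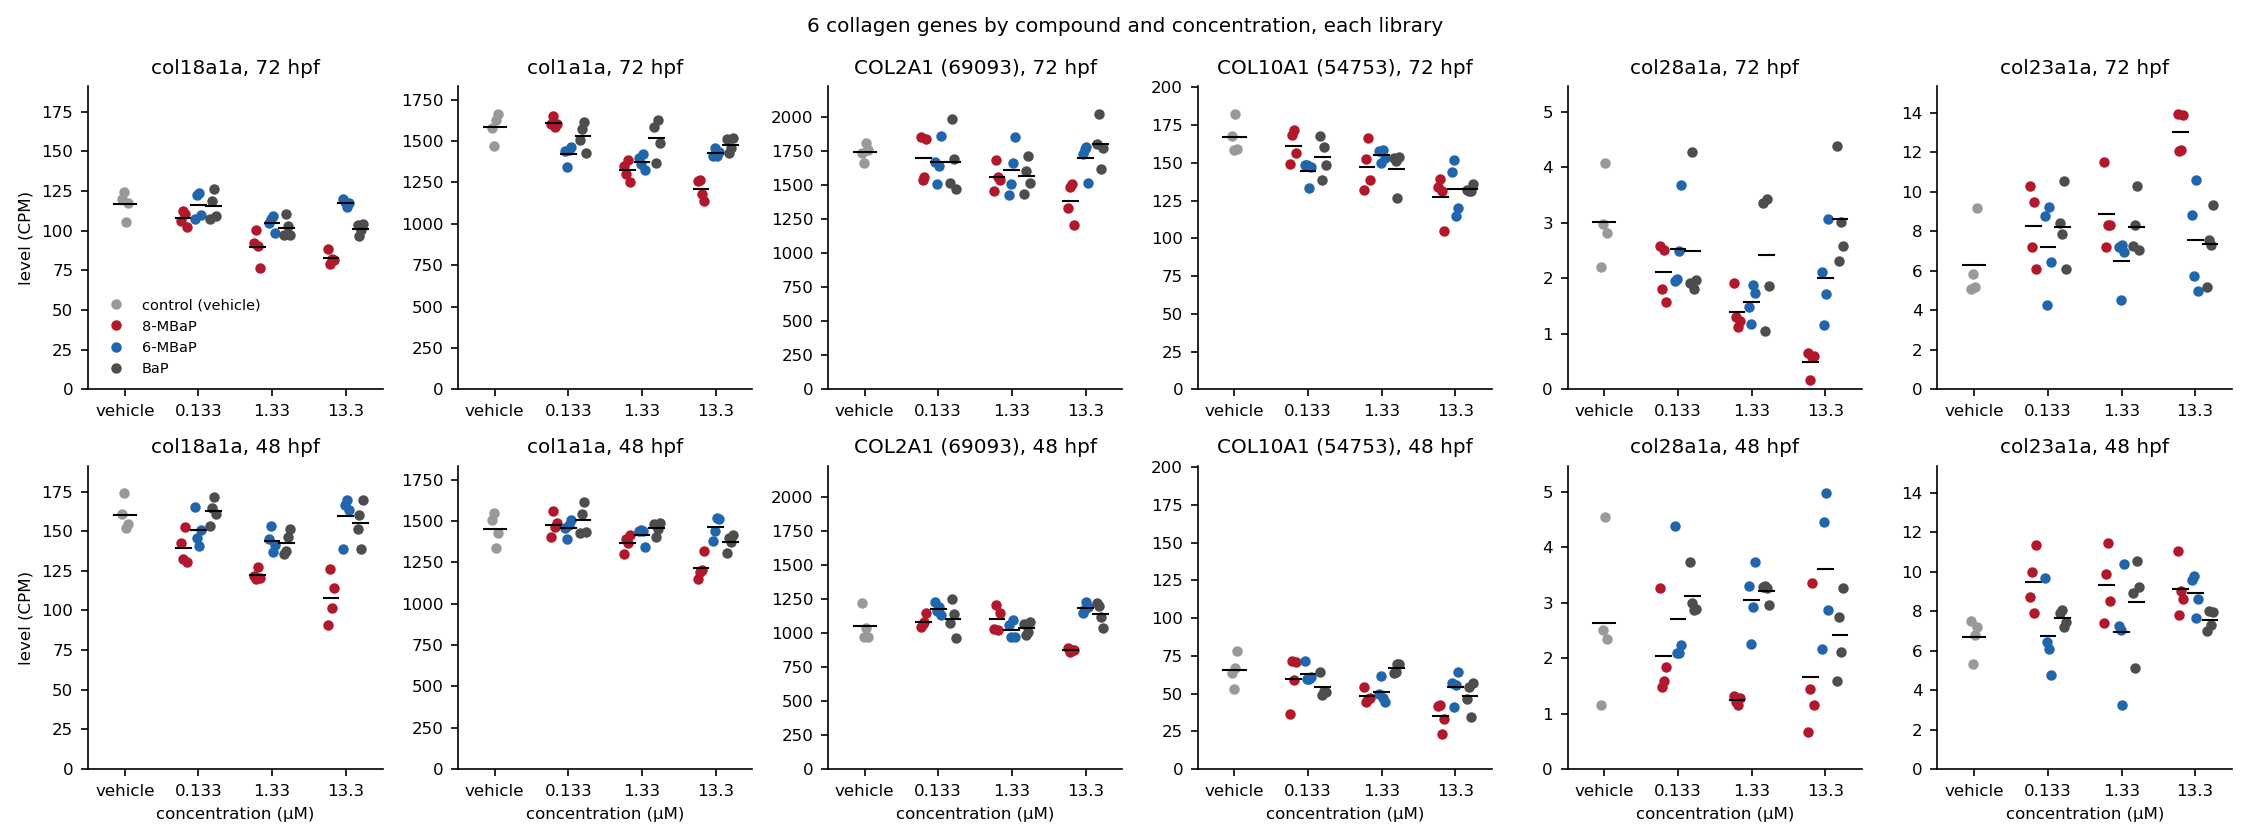
Levels (CPM) of 6 collagen chain genes in each pool, for the control at the left and rising concentrations of 8-MBaP, with 6-MBaP and BaP in their own colours; points are pools and bars are means of 4. In col18a1a at 72 hpf the pools with 13.3 µM 8-MBaP lie between 78.7 and 88.2 CPM, below the control pools at 105 to 124 CPM.

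BaP and 6-MBaP gave no call in the chain genes against the control at any concentration or time by edgeR. At 13.3 µM, the members with an unadjusted p under 0.05 numbered 7 at 48 hpf and 3 at 72 hpf for 6-MBaP, and 6 and 7 for BaP, and DESeq2 called 0, 0, 0 and 1. Of all genes tested, 0.253% and 0.038% passed for 6-MBaP, and 0.343% and 0.809% for BaP. At the lower concentrations the unadjusted numbers were 5 to 6 for 6-MBaP and 2 to 6 for BaP, and DESeq2 called 1 member in a single case, 0.133 µM 6-MBaP at 72 hpf. There 0% of all genes passed for 6-MBaP at 48 hpf and 0.00543% at 72 hpf at either concentration, and for BaP at 0.133 and 1.33 µM 0.0112% and 0.0843% passed at 48 hpf and 0.0109% and 0.13% at 72 hpf. All these comparisons and those of 8-MBaP share the 4 control pools of their time. At 13.3 µM the median log2 fold change of the members was 0.15 at 48 hpf and 0.00 at 72 hpf for 6-MBaP, and −0.04 and −0.01 for BaP. There 13 of 52 and 26 of 54 members were below 0 for 6-MBaP, and 29 of 52 and 28 of 54 for BaP. At 1.33 µM and 72 hpf, 39 of 54 were below 0 for 6-MBaP and 32 of 54 for BaP, so an uneven direction also occurred without calls.

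The compounds were then compared with each other at matched concentrations and times, in 18 comparisons, each with p-values adjusted over all genes. At 13.3 µM 8-MBaP gave lower levels than 6-MBaP for 7 members at 48 hpf and 5 at 72 hpf, and lower levels than BaP for 4 and 3, with no member higher. Of all genes, 0.731% and 1.37% passed against 6-MBaP (0.32% and 0.586% lower) and 0.815% and 0.814% against BaP (0.36% and 0.347% lower). The median log2 difference of the members was −0.25 and −0.18 against 6-MBaP, and −0.14 and −0.21 against BaP, at 48 and 72 hpf. Between 6-MBaP and BaP at 13.3 µM no member passed by edgeR or by DESeq2, with 4 and 2 under an unadjusted p of 0.05 (0.197% and 0.114% of all genes passed). At 0.133 and 1.33 µM none of the 12 comparisons called a member by edgeR, with 0 to 9 under an unadjusted p of 0.05 and up to 4 by DESeq2, for 8-MBaP against BaP at 1.33 µM and 72 hpf. At 0.133 µM, 0.365% (48 hpf) and 0.195% (72 hpf) of all genes passed for 8-MBaP against BaP, 0.163% and 0.217% for 8-MBaP against 6-MBaP, and 0.0169% and 0.174% for 6-MBaP against BaP. At 1.33 µM these were 0.36% and 0.923%, 0.506% and 0.89%, and 0.0337% and 0.0543%.

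The position of the methyl group went with different levels of col18a1a at both times. At 72 hpf it had 88.2, 78.7, 82.3 and 81.4 CPM with 8-MBaP, against 120.1, 118, 115 and 117 CPM with 6-MBaP (log2 difference −0.50 ± 0.09, adjusted p = 0.000117). At 48 hpf 8-MBaP gave 90.9, 126, 101 and 114 CPM, against 139, 167, 169.7 and 163 CPM with 6-MBaP (−0.57 ± 0.09, adjusted p = 1.09e-05). The pools were apart at both times. BaP gave 104, 96.5, 100.3 and 104 CPM at 72 hpf and 151, 160.1, 139 and 169.7 CPM at 48 hpf, and the log2 difference of 8-MBaP from it was −0.29 at 72 hpf (95% interval −0.46 to −0.12, adjusted p = 0.120) and −0.53 ± 0.09 at 48 hpf (adjusted p = 8.2e-05). The call against 6-MBaP at both times and that against BaP at 48 hpf stood without any single library. At 72 hpf all pools with BaP also lay below all control pools, although BaP was not called against the control.

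Among the cartilage chains at 48 hpf, COL2A1 ENSDARG00000069093 had 890.0, 860.3, 876 and 871 CPM with 8-MBaP, against 1149, 1174, 1231 and 1189.8 CPM with 6-MBaP and 1219.6, 1197, 1119.7 and 1033 CPM with BaP. Every pool with 8-MBaP was below every pool with either of the other two. The log2 differences were −0.45 ± 0.08 from 6-MBaP (adjusted p = 7.77e-05) and −0.39 ± 0.08 from BaP (adjusted p = 0.00114), and neither call depended on a single library. For col9a1b, 8-MBaP gave 157, 127, 159.8 and 131 CPM, against 180.2, 174, 202 and 184 CPM with 6-MBaP and 185, 209, 175 and 199 CPM with BaP, again apart. Its log2 differences were −0.37 ± 0.09 from 6-MBaP (adjusted p = 0.0141, lost without 8-MBaP pool B or D or 6-MBaP pool C, up to 0.116) and −0.42 ± 0.09 from BaP (adjusted p = 0.00263), which stood without any single library. At 48 hpf col1a1a, col9a3, COL10A1 ENSDARG00000054753 and col17a1b were also lower than with 6-MBaP (adjusted p = 0.0199, 0.0184, 0.0183 and 0.0481), and COL11A2 than with BaP (adjusted p = 0.0441). Each of these 5 calls was lost without 1 or another library, with adjusted p up to 0.118, 0.125, 0.179, 0.209 and 0.151, and the pools of COL10A1 overlapped. Against the control at 48 hpf, 13.3 µM 8-MBaP gave no call for COL2A1 ENSDARG00000069093, col9a1b or COL11A2. With 13.3 µM 6-MBaP the median log2 fold change of the members against the control was 0.15 at 48 hpf. A difference between compounds is thus not by itself a fall from the control.

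At 72 hpf col28a1a had 0.650, 0.159, 0.577 and 0.604 CPM with 8-MBaP, against 2.11, 1.15, 1.72 and 3.06 CPM with 6-MBaP and 4.38, 2.31, 3.02 and 2.58 CPM with BaP. It was apart from both, with log2 differences of −1.95 ± 0.47 from 6-MBaP (adjusted p = 0.0132, lost without 8-MBaP pool B or 6-MBaP pool D, up to 0.0935) and −2.56 ± 0.46 from BaP (adjusted p = 0.000302, kept without any single library). COL6A2 and the COL2A1 ID ENSDARG00000011407 were lower than with 6-MBaP by 0.41 ± 0.10 and 0.33 ± 0.09 on the log2 scale (adjusted p = 0.00972 and 0.0285), and col7a1, the chain of anchoring fibrils, by 0.87 ± 0.23 (adjusted p = 0.0323) with overlapping pools. Against BaP, col1a1a differed by −0.29 ± 0.07 (adjusted p = 0.0163) and COL2A1 ENSDARG00000069093 by −0.38 ± 0.09 (adjusted p = 0.0164). Each of these 5 was lost without 1 or another library, with adjusted p up to 0.0978 for COL6A2, 0.244 for COL2A1 ENSDARG00000011407, 0.242 for col7a1, 0.111 for col1a1a and 0.160 for COL2A1 ENSDARG00000069093.

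COL10A1 ENSDARG00000054753 at 72 hpf was a case where the compounds were not told apart. It had 134, 139.5, 132 and 105 CPM with 8-MBaP, 144, 152, 114 and 120.0 CPM with 6-MBaP and 132, 131, 131 and 136 CPM with BaP, against 168, 158, 183 and 159 CPM in the control. All 12 exposed pools were below all 4 control pools. Only the difference of 8-MBaP from the control passed, since the log2 fold changes of −0.33 ± 0.09 with 6-MBaP and −0.32 ± 0.09 with BaP had adjusted p-values of 0.369 and 0.0981. The log2 difference of 8-MBaP was −0.05 from 6-MBaP (95% interval −0.23 to 0.14) and −0.06 from BaP (−0.24 to 0.13). For col23a1a at 72 hpf, 6-MBaP gave 8.83, 5.75, 10.6 and 5.00 CPM and BaP 5.18, 7.56, 7.30 and 9.31 CPM, all below the 12.1 to 13.97 CPM with 8-MBaP, with log2 differences of 0.78 and 0.83 that missed the threshold (adjusted p = 0.0799 and 0.0709).

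**Figure D4:**
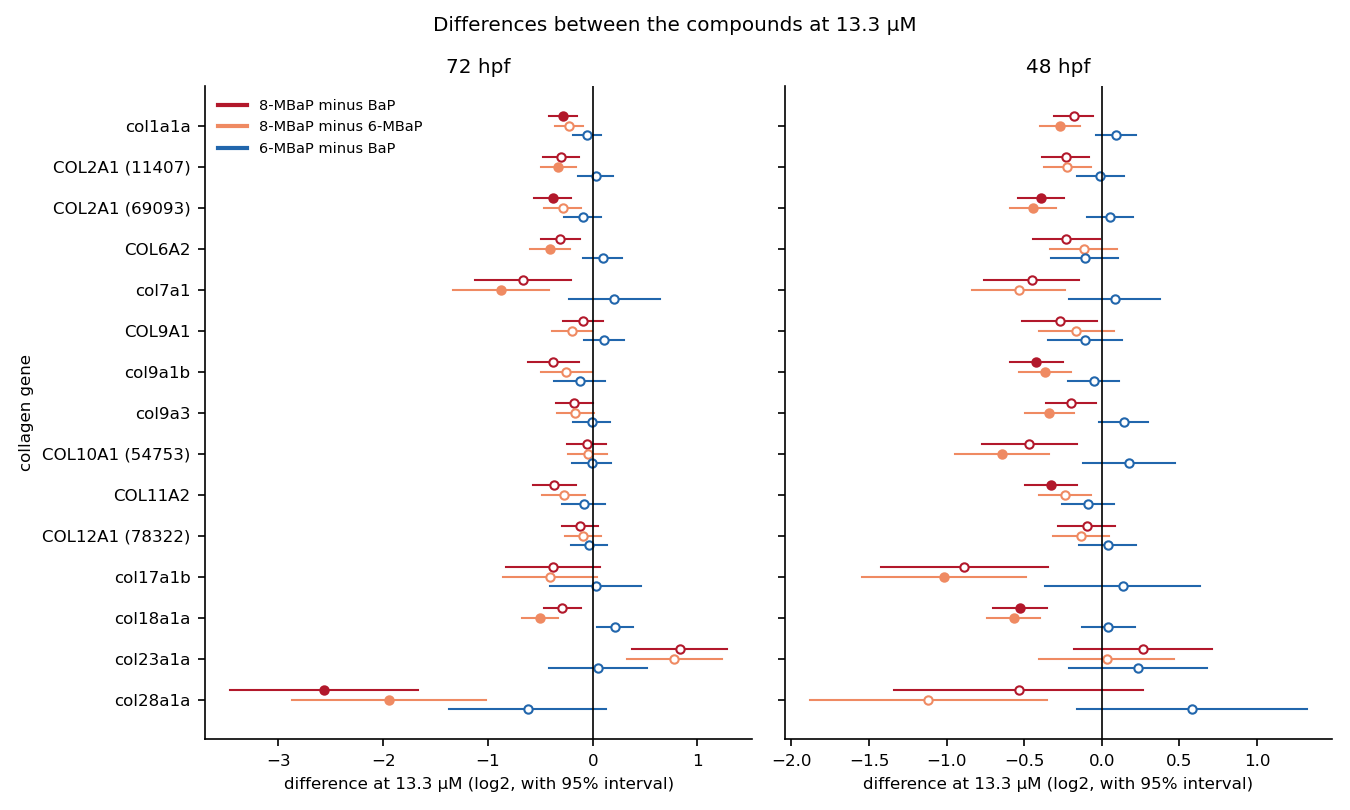
Log2 differences with 95% intervals at 13.3 µM for 8-MBaP minus BaP, 8-MBaP minus 6-MBaP and 6-MBaP minus BaP, for 15 collagen chain genes, with 72 hpf left of 48 hpf; filled points passed an adjusted p of 0.05. In col18a1a at 72 hpf the interval of 8-MBaP minus BaP runs from −0.46 to −0.12 and its point is open.

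Whether an exposure acted differently at the 2 times was tested as the difference of its log2 fold changes. No member passed in any of the 9 such comparisons by edgeR, with 2 to 7 at an unadjusted p under 0.05, and DESeq2 called 2 for 1.33 µM 8-MBaP and 0 otherwise. Of all genes, 0.0989% passed for 13.3 µM 8-MBaP, 0.0677% for 1.33 µM 8-MBaP, 0.0104% for 13.3 µM BaP and 0% for the other six. For col18a1a the difference at 13.3 µM 8-MBaP, 72 minus 48 hpf, was 0.08 ± 0.12 on the log2 scale (95% interval −0.15 to 0.31). Members called at 1 time and not at the other, such as col28a1a (difference −1.87 ± 0.61, adjusted p = 0.425), are therefore not shown to differ between times. For COL10A1 ENSDARG00000054753, called at both times, the difference was 0.53 ± 0.19 (adjusted p = 0.498).

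Between 48 and 72 hpf the control embryos themselves changed in 22 of 54 chain genes, 16 higher and 6 lower at 72 hpf, where 22.7% of all genes passed (12.5% higher, 10.2% lower). The higher genes include col6a4b, which passed the filter only through libraries at 72 hpf. The share among the members, 22 of 54, was above that over all genes, and their median log2 fold change was 0.19, against 0.02 over all genes. The share over all genes was not matched for level, here or in the other comparisons, and 16 of the 54 members averaged 100 CPM or more in the control at 72 hpf. Without single control libraries the count was 17 to 21, lowest without pool D at 48 hpf.

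Of the genes that rose, col6a4b, a type VI chain, had the largest log2 fold change (3.87 ± 1.15, adjusted p = 0.00776), on 6, 11, 4 and 4 reads at 72 hpf, against 0, 0, 1 and 0 reads at 48 hpf. No library at 48 hpf held 5 reads of col6a4b, so its direction was partly set by the filter. The type IX chain COL9A1 had 145, 169, 160.0 and 159 CPM at 72 hpf, against 48.8, 35.2, 36.0 and 50.4 CPM at 48 hpf (log2 fold change 1.90 ± 0.11, adjusted p = 3.28e-28). COL10A1 ENSDARG00000054753 had 168, 158, 183 and 159 CPM at 72 hpf, against 63.4, 53.3, 67.1 and 78.3 CPM at 48 hpf (1.35 ± 0.13, adjusted p = 3.34e-15). Neither gene's pools overlapped between the times. COL8A1, a network chain of vessel and corneal basement membranes in mammals, had 3.04, 5.15, 3.30 and 2.42 CPM at 72 hpf, against 0.769, 0.667, 1.05 and 0.361 CPM at 48 hpf (2.26 ± 0.54, adjusted p = 0.000575). COL2A1 ENSDARG00000069093 rose by 0.74 ± 0.08 and COL11A2 by 0.87 ± 0.10 on the log2 scale (adjusted p = 5.11e-12 and 1.39e-12), and the type VI chains COL6A2 and col6a1 by 0.99 ± 0.10 and 0.78 ± 0.13 (adjusted p = 5.24e-14 and 4.18e-07). The multiplexin col18a1b had 6.76, 6.10, 4.24 and 2.30 CPM at 72 hpf, against 0.384, 2.00, 3.32 and 3.25 CPM at 48 hpf, with overlap (1.09 ± 0.38, adjusted p = 0.0267), and its call was lost without pool A or B of either time (adjusted p up to 0.176). The other rises, in COL8A2, col9a3, COL9A2, col19a1 ENSDARG00000076163, COL12A1 ENSDARG00000078322, col11a1b and COL5A2, lay between 0.36 and 1.41 on the log2 scale.

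Falls with age were fewer. The type XXVIII chain col28a2a averaged 17.7 ± 1.19 CPM at 72 hpf and 53.1 ± 13.6 CPM at 48 hpf (SD, n = 4 each), without overlap (log2 fold change −1.58 ± 0.19, adjusted p = 1.48e-11). The level of col18a1a fell by 0.45 ± 0.08 on the log2 scale (adjusted p = 7.98e-06), to 105 to 124 CPM at 72 hpf, against 152 to 174 CPM at 48 hpf. The type V chain col5a3b, col7a1, COL14A1 and col9a1b fell by 1.12, 0.59, 0.53 and 0.30 on the log2 scale (adjusted p = 0.0336, 0.0137, 0.0352 and 0.0376), and each of these 4 calls was lost without 1 or another control pool (adjusted p up to 0.109, 0.0552, 0.157 and 0.136). The abundant type I chains did not pass, with log2 fold changes of 0.01 ± 0.06 for COL1A1, −0.03 ± 0.07 for COL1A2 and 0.13 ± 0.06 for col1a1a. The control pools at 72 hpf also serve as the control of the exposures at that time.

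**Figure D5:**
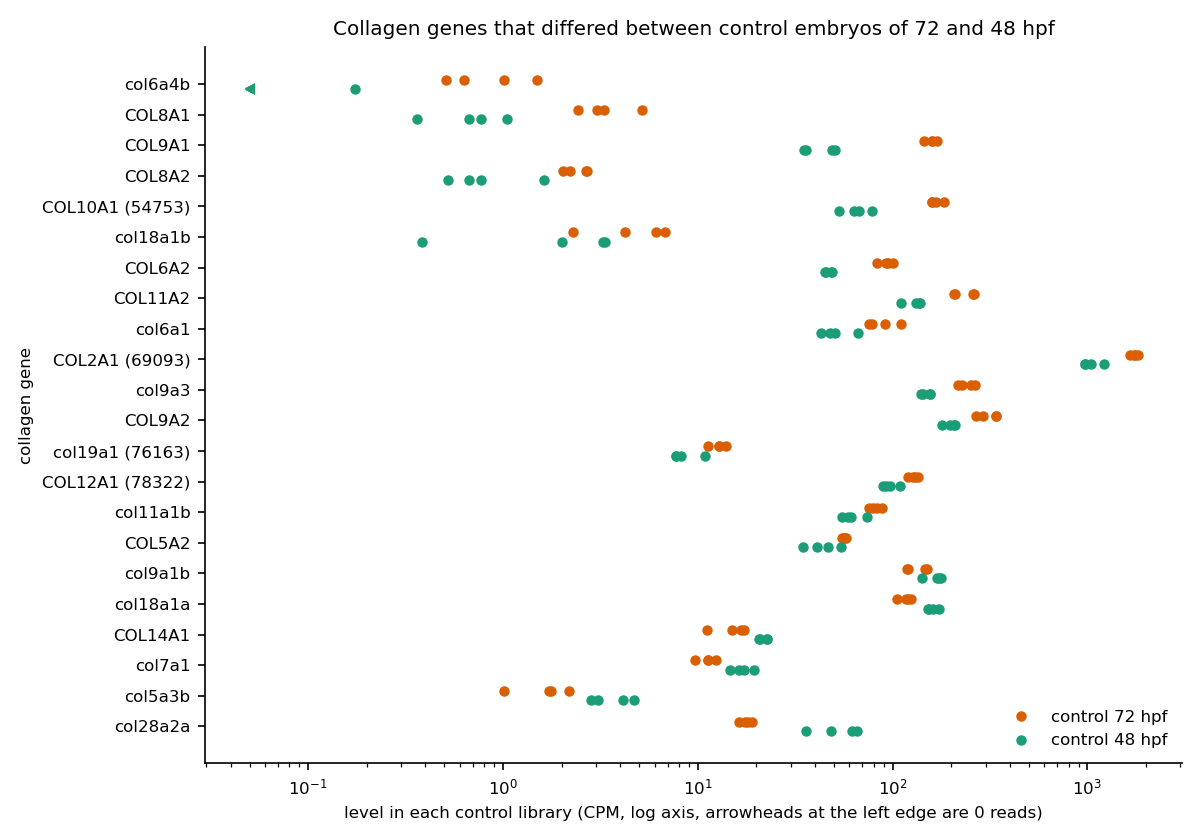
Levels (CPM, log axis) of collagen chain genes in the 4 control pools at 72 hpf and 48 hpf for genes that passed an adjusted p of 0.05; arrowheads mark pools with 0 reads. COL9A1 lies between 145 and 169 CPM at 72 hpf and between 35.2 and 50.4 CPM at 48 hpf.

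Genes that make, assemble, bind or cut collagen were taken as 5 lists (84 genes tested at each time). With 13.3 µM 8-MBaP 4 of them passed at 72 hpf, 2 higher and 2 lower, and 3 passed at 48 hpf, 2 higher and 1 lower, with medians of −0.01 and 0.02 on the log2 scale, where 2.47% and 1.54% of all genes passed. With 1.33 µM 8-MBaP 4 passed at 72 hpf, 2 in each direction, and 2 passed at 48 hpf, both lower, where 0.923% and 0.691% of all genes passed. Without 8-MBaP pool D or control pool D the count at 13.3 µM and 72 hpf was 2, without 8-MBaP pool B the count at 13.3 µM and 48 hpf was 6, and without 8-MBaP pool A the count at 1.33 µM and 72 hpf was 2. With 13.3 µM 6-MBaP none passed by edgeR (0.253% of all genes did at 48 hpf and 0.038% at 72 hpf), with 6 under an unadjusted p of 0.05 at 48 hpf and 3 at 72 hpf and 1 and 0 by DESeq2. With 13.3 µM BaP 1 rose at 48 hpf and none passed at 72 hpf (0.343% and 0.809% of all genes passed), with 8 under an unadjusted p of 0.05 at each time and 1 and 0 by DESeq2. Without BaP pool C or control pool B the count for BaP at 48 hpf was 0.

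Of the 25 biosynthesis genes, 1 rose with 13.3 µM 8-MBaP at each time, where 1.54% of all genes passed at 48 hpf and 2.47% at 72 hpf. P3H1, a prolyl 3-hydroxylase, had 72.6, 64.6, 70.4 and 65.4 CPM with 8-MBaP at 48 hpf, against 39.8, 48.5, 53.5 and 55.2 CPM in the control, without overlap (log2 fold change 0.46 ± 0.12, adjusted p = 0.0262). The call was lost without 8-MBaP pool A, C or D or control pool A or B (adjusted p up to 0.193). P4HA1, a prolyl 4-hydroxylase subunit, had 32.2, 48.5, 25.6 and 71.7 CPM with 8-MBaP at 72 hpf, against 23.7, 32.1, 23.6 and 25.3 CPM in the control, with overlap (0.77 ± 0.18, adjusted p = 0.00688), and was lost without 8-MBaP pool D (adjusted p = 0.276). SERPINH1 (ENSDARG00000019949), a chaperone that folds collagen chains, fell with 1.33 µM 8-MBaP at 48 hpf, to 129, 109, 109 and 99.6 CPM, against 157, 186, 169 and 166 CPM in the control (−0.61 ± 0.11, adjusted p = 0.000251, kept without any single library). With 13.3 µM at 48 hpf it had 128, 131, 123 and 148 CPM, also below every control pool, but missed the threshold (−0.36 ± 0.11, adjusted p = 0.0693), and the other SERPINH1 ID, ENSDARG00000075954, did not pass at either concentration.

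Among the genes of fibril assembly 1 of the 2 FN1 (fibronectin) IDs, ENSDARG00000006526, fell at 72 hpf with 13.3 µM 8-MBaP by 0.47 ± 0.13 (adjusted p = 0.0208, lost without 8-MBaP pool A or D or control pool A, C or D, up to 0.147) and with 1.33 µM by 0.70 ± 0.13 on the log2 scale (adjusted p = 0.000246, kept without any single library). The other FN1 ID, ENSDARG00000019815, did not pass, with log2 fold changes of −0.01 and 0.04 at 13.3 and 1.33 µM. The small leucine-rich proteoglycan KERA, which spaces corneal fibrils, had 29.9, 21.5, 23.3 and 28.1 CPM with 13.3 µM 8-MBaP at 72 hpf, against 47.8, 43.7, 34.9 and 62.0 CPM in the control (−0.87 ± 0.14, adjusted p = 3.02e-05). It also fell at 48 hpf (−0.88 ± 0.11, adjusted p = 7.79e-08), and both calls stood without any single library. The collagenase mmp13a had 4.55, 7.79, 5.65 and 6.94 CPM with 13.3 µM 8-MBaP at 72 hpf, against 2.70, 1.76, 2.98 and 1.79 CPM in the control (1.45 ± 0.37, adjusted p = 0.0126, lost without 8-MBaP pool B or control pool B or D, up to 0.0643). It rose at 48 hpf too (2.30 ± 0.40, adjusted p = 0.000109, kept without any single library), and with 13.3 µM BaP at 48 hpf (1.958 ± 0.41, adjusted p = 0.00676, lost without BaP pool C or control pool B, up to 0.171). With 1.33 µM 8-MBaP at 72 hpf the gelatinase MMP9 rose by 2.48 ± 0.43 on the log2 scale (adjusted p = 0.000105, kept without any single library), but MMP9 was not called with 13.3 µM 8-MBaP at either time. No collagen receptor passed with 13.3 µM 8-MBaP by edgeR, and the medians of that list were 0.25 at 72 hpf and 0.01 at 48 hpf.

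Marker genes of cell types that make collagen, and of other tissues such as the outer epidermis and muscle, moved in part with 13.3 µM 8-MBaP. Of all genes tested, 2.47% passed with it at 72 hpf and 1.54% at 48 hpf. The summed level of the osteoblast markers was 17.8 to 22.1 CPM with 8-MBaP, against 24.2 to 26.9 CPM in the control at 72 hpf, and 10.1 to 14.3 CPM, against 15.2 to 22.6 CPM, at 48 hpf, without overlap, although none of the 5 tested passed at either time. Chondrocyte markers summed to 810.1 to 969.7 CPM with 8-MBaP and 920.4 to 997 CPM in the control at 72 hpf, with overlap, and of the 14 tested 1 ID of the cartilage regulator SOX9, ENSDARG00000043923, fell by 0.96 ± 0.16 (adjusted p = 3.76e-05) and hapln1a by 0.42, whereas MATN4 rose by 0.38. The other SOX9 ID, ENSDARG00000003293, was not called. Fin fold markers summed to 617 to 716 CPM with 8-MBaP, against 1029 to 1201 CPM in the control at 72 hpf, and outer epidermis markers to 3616 to 4269 CPM, against 8367 to 9347 CPM. Of the 4 outer epidermis markers only the keratin krt4 passed at 72 hpf, where it fell by 1.33 ± 0.08 on the log2 scale with 13.3 µM 8-MBaP (adjusted p = 1.65e-19) and by 0.71 ± 0.08 with 13.3 µM BaP (adjusted p = 1.54e-08). At 48 hpf krt4 and krt5 were lower with 13.3 µM 8-MBaP (log2 fold changes −0.67 ± 0.06 and −0.38 ± 0.07, adjusted p = 1.76e-13 and 0.000187). The keratin krt17 was lower at 48 hpf with 13.3 µM 6-MBaP (log2 fold change −0.81 ± 0.16, adjusted p = 0.00881). Of the 6 fin fold genes tested, and1, and2 and and3 fell at both times with 13.3 µM 8-MBaP. With 13.3 µM BaP, and2 was lower too at 48 hpf (log2 fold change −0.58 ± 0.10, adjusted p = 0.000226). The summed fibroblast markers overlapped between 8-MBaP and the control, with 793 to 985 CPM against 900.4 to 1058 CPM at 72 hpf, as did muscle and endothelial markers. Single fibroblast markers were called in both directions with 13.3 µM 8-MBaP. The POSTN ID ENSDARG00000043806 fell at 72 hpf (log2 fold change −1.09 ± 0.17, adjusted p = 1.05e-05), whereas the other POSTN ID, ENSDARG00000104267, was not called. TCF15 rose at 48 hpf (1.01 ± 0.25, adjusted p = 0.0169). In the notochord list the CAVIN1 ID ENSDARG00000076411 rose at 48 hpf with 13.3 µM 8-MBaP (log2 fold change 0.97 ± 0.27, adjusted p = 0.0406), and the other CAVIN1 ID, ENSDARG00000059362, was not called. For SOX9, POSTN and CAVIN1 the lists named only sox9a, postnb and cavin1b, and both IDs of each carried only the human symbol. Which ID is the named gene was not settled, so a called ID may be an unlisted paralog. None of the 4 basal keratinocyte markers tested was called with 13.3 µM 8-MBaP. The listed markers krtt1c19e (basal keratinocytes), pecam1 and etv2 (endothelium) and mylpfa (muscle) were matched to no ID. Among the defining markers, 1 of 15 for chondrocytes, 1 of 8 for osteoblasts and 1 of 8 for the fin fold had 0 reads in all 4 control pools. Their part in the lower collagen levels was not tested.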

How the data were processed

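RNA of pooled whole embryos was sequenced as barcoded bulk 3′ libraries. The authors deposited 1 table of read counts per Ensembl gene ID, demultiplexed and mapped by a sequencing company. The aligner, the genome build and the use of molecular identifiers are not given in the sources used here. Symbols came from a gene name table, with 29201 of 32520 IDs named. A listed gene with no symbol of its own there was matched to every ID that carried the symbol of its human counterpart. A list can therefore hold paralogs that it did not name. Members and gene lists were chosen with earlier results of these data known.

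Counts were tested with edgeR 4.0.16 in R 4.3.3 (TMM scaling, quasi-likelihood F test, adjusted p at or under 0.05 by Benjamini-Hochberg over all genes). Each time point was fitted with its 10 groups (40 libraries), after a filter of 5 reads in 2 libraries, and the 80 libraries were fitted together for age and for differences of effects between times. Standard errors were worked back from the test, as the size of the log2 fold change divided by the square root of its F statistic. The 95% intervals are normal ones built from these standard errors. CPM used TMM factors of all 80 libraries. The code was tested on simulated counts. Named genes were all members called in any exposure, compound or time comparison, the 5 highest in the controls of each time, up to 8 called in each direction with age (6 fell), and called genes of the other lists with 8-MBaP, up to 4 a list. The genes called in other lists at 1.33 µM, as well as col28a2a with 8-MBaP and krt17 with 6-MBaP, were named after their values were seen.

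Alternatives were DESeq2 1.42.0, other scalings and filters, only the compared groups, the pool letter as a block, and each library left out in turn.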

Additional observations from a re-analysis of the deposited data

Results flagged for a closer look

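Of 112 sets of 4 pools examined, 4 held a pool far from the other 3 by Dixon's criterion, which chance alone flags in about 1 of 20 sets. COL2A1 ENSDARG00000011407 had 334 CPM in pool D with 13.3 µM 6-MBaP at 72 hpf, where the nearest pool had 366 CPM. In the control at 48 hpf, col6a4b had 0.175 CPM in pool C and no reads in the others, and col19a1 ENSDARG00000076163 had 10.8 CPM in pool B, where the nearest pool had 8.21 CPM. With 13.3 µM 8-MBaP at 72 hpf, col28a1a had 0.159 CPM in pool B, where the nearest pool had 0.577 CPM.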

How the results depend on the processing

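No call of a collagen chain gene changed direction under any alternative, and 26 of the 60 calls stood under all of them. Counts of chain genes called differed by over 1.5 times as follows, against the values in the report; the cause was not tested. DESeq2 called 1 (0.133 µM) and 7 (13.3 µM) for 8-MBaP against BaP at 48 hpf, 4 (1.33 µM) and 8 (13.3 µM) for the same pair at 72 hpf, 1 (0.133 µM) and 8 (13.3 µM) for 8-MBaP against 6-MBaP at 72 hpf, and 1 for 6-MBaP against BaP (1.33 µM, 72 hpf). It called 1 for 0.133 µM 6-MBaP and 1 for 13.3 µM BaP against control at 72 hpf, 1 for 13.3 against 1.33 µM 8-MBaP at 48 hpf, 3 for 1.33 against 0.133 µM at 72 hpf, and 2 for the difference of 1.33 µM 8-MBaP between times. Without a filter it was 2 for 1.33 µM 8-MBaP and 1 for 13.3 µM BaP at 48 hpf, 1 each for 0.133 µM 6-MBaP and 13.3 µM BaP at 72 hpf, 1 for 6-MBaP against BaP at 0.133 µM and 1 for 8-MBaP against BaP at 1.33 µM at 48 hpf, and, at 72 hpf, 1 for 8-MBaP against 6-MBaP at 0.133 µM and 6 for 8-MBaP against BaP at 13.3 µM. With filterByExpr it was 1 for 1.33 against 0.133 µM 8-MBaP at 72 hpf. With only the compared groups, and so fewer samples, it was 0 for 0.133 µM and 2 for 13.3 µM 8-MBaP at 48 hpf, 1 for 1.33 µM 8-MBaP at 72 hpf, 3 and 1 for 8-MBaP against 6-MBaP at 13.3 µM at 48 and 72 hpf, and 1 for 8-MBaP against BaP at 1.33 µM and 48 hpf. In the processing and partner genes, 13.3 µM 8-MBaP at 48 hpf gave 6 by DESeq2, 6 without a filter and 5 with only the compared groups. There 13.3 µM 6-MBaP at 48 hpf gave 1 by DESeq2, and 13.3 µM BaP at 72 hpf gave 1 without a filter and 1 with only the compared groups.

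Without single libraries, the counts of 8-MBaP against control at 48 hpf were 0 to 1 (0.133 µM), 0 to 1 (1.33 µM) and 3 to 5 (13.3 µM), and at 72 hpf 0 to 2 (1.33 µM) and 4 to 10 (13.3 µM). For 8-MBaP against BaP they were 3 to 4 (13.3 µM, 48 hpf), 0 to 1 (1.33 µM, 72 hpf) and 1 to 4 (13.3 µM, 72 hpf), lowest without 8-MBaP pool D. For 8-MBaP against 6-MBaP they were 2 to 6 (13.3 µM, 48 hpf, lowest without 6-MBaP pool C), 0 to 1 (0.133 µM, 72 hpf) and 2 to 5 (13.3 µM, 72 hpf, lowest without 6-MBaP pool A). Partner genes numbered 2 to 6 and 0 to 1 at 48 hpf for 13.3 µM 8-MBaP and BaP, and 2 to 4, 2 to 4 and 0 to 1 at 72 hpf for 8-MBaP at 1.33 µM and at 13.3 µM and for BaP at 13.3 µM. Libraries were not left out for the cell type and fin fold markers or for the differences between times, and for age only control libraries were. Same-lettered pools had mean correlations of 0.0037 at 48 hpf and 0.0002 at 72 hpf, so the letters did not pair them. With the letter as replicate block, 13.3 µM 8-MBaP gave 5 calls at 48 hpf and 11 at 72 hpf against control. Depth limits most the 8 members under 1 CPM in the control at 72 hpf.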
